A study of Rattus norvegicus with 12 samples.

Results

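Genes of the glutathione system and of the antioxidant response governed by the transcription factor Nrf2 were examined in bronchi of rats that had inhaled 2,3-pentanedione (PD), a butter flavouring diketone that injures the airway epithelium. The genes were taken by symbol, under a rule set with earlier results of these data known. The rule took every glutathione transferase (Gsta, Gstm, Gstp, Gstt, Gstz, Gsto, Gstk and the microsomal Mgst genes), glutathione peroxidase (Gpx), peroxiredoxin (Prdx) and superoxide dismutase (Sod), plus Gclc, Gclm, Gsr, Gss, Nqo1, Hmox1, Txnrd1, Txn1, Srxn1, Nfe2l2, Keap1 and Cat. The array measured 50 of them, among 14217 genes with a probe set of their own. They were 23 glutathione transferases and 27 other genes. For 11 genes of the same names in the RefSeq annotation, Prdx1 and Gsta2 among them, no probe set was assigned to that gene alone, and none of the 11 is counted here.

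Bronchial tissue was laser captured from lungs of male Wistar Han rats aged 6 to 7 weeks on arrival, before acclimation and exposure, and its amplified RNA was hybridised to 12 arrays. Fibrotic bronchi (3 arrays, labelled 3, 7 and 9) came from rats exposed to 200 ppm PD for 6 h per day on 12 days over 2 weeks, and were captured with the intraluminal polyp or plaque together with the bronchial wall. Non-fibrotic bronchi (3 arrays, labelled 4, 8 and 10) were other bronchi of exposed rats that had no such lesion. By the methods they came from sections of 3 rats whose fibrotic bronchi were also captured. Control bronchi (6 arrays, labelled 1 to 6) came from rats that breathed filtered air on the same schedule. The methods count 5 exposed rats, 3 of them with non-fibrotic bronchi, and 6 control rats, and the labels do not tie the exposed specimens to animals. With 3 fibrotic and 3 non-fibrotic arrays from 5 exposed rats, the groups must share a rat if the arrays within a group came from different rats. Which arrays share a rat is not known. The p-values measure the spread between these arrays, and those between the exposed groups treat specimens of a shared rat as independent.

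Glutathione is a cysteine-containing tripeptide that is assembled by glutamate-cysteine ligase (a catalytic subunit, Gclc, and a modifier subunit, Gclm) and glutathione synthetase (Gss), and is returned to its reduced form by glutathione reductase (Gsr). Glutathione transferases join it to reactive electrophiles, and glutathione peroxidases spend it to reduce peroxides. In unstressed cells Keap1 holds Nrf2 (encoded by Nfe2l2) for degradation, and when electrophiles modify Keap1, Nrf2 accumulates and binds antioxidant response elements near genes such as Nqo1, Gclm and Hmox1. In the conducting airway the secretory club cells are rich in glutathione transferases and other xenobiotic enzymes.

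Values are log2 array signals, so a difference of 1 is a 2-fold difference in signal, and levels are not compared between genes because probe sets differ in brightness. Differences were tested with limma across all 31042 probe sets, with Benjamini-Hochberg adjustment within each comparison and a call at an adjusted p under 0.01. An absent level was set from probe sets for bacterial genes. Those of Trpn, not among the added poly-A control transcripts, were read on all 12 arrays. Those of the added transcripts were read on control arrays 1 and 2 alone, where they averaged 2.32. That they were not added there is inferred from this low signal. The highest of these 84 signals, 6.52 on the log2 scale, was taken as the level of an absent transcript. By that measure 40 of the 50 genes had mean signals above the absent level in every group, and Gpx6, Gsta3l1, Gstm3 and Gstm6l lay under it on all 12 arrays. For a group wholly under that level, only a lower limit of the fold change is printed.

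The makeup of the captured tissue differed between the groups. Of 8 measured ciliated cell markers all 8 fell in fibrotic bronchi against controls, with a median log2 fold change of -4.58, and their summed log2 signal was 12.32 to 12.51 on fibrotic arrays, 14.74 to 15.36 on non-fibrotic arrays and 15.09 to 15.57 on control arrays. Of 8 club cell markers 7 fell (median -6.17), and with signals under the absent level set to that level the medians of the club and ciliated lists were alike, at -4.50 and -4.45. The club list as drawn up includes Sec14l3, Pon1, Fmo2, Cyp4b1, Cyp2f4 and Cyp2b1. The paper lists these among its largest decreases in fibrotic bronchi, so the fall of that list is not an independent observation. Club cell marker sums were 12.64 to 13.83 on fibrotic, 15.10 to 15.98 on non-fibrotic and 15.51 to 16.92 on control arrays. The ciliated marker Dnali1 and the club cell markers Scgb3a1 and Pon1 were under the absent level on every fibrotic array. General epithelial markers fell for 3 of 7 (Cdh1, Cldn3 and Cldn7), alveolar type II markers for 3 of 7, and basal, smooth muscle, endothelial, erythroid and granulocyte markers had no call. Macrophage markers rose for 3 of 7 (Cd68, Mrc1 and Spp1), with sums of 13.52 to 14.31 on fibrotic, 10.47 to 12.84 on non-fibrotic and 11.34 to 12.42 on control arrays. Fibroblast markers rose for 4 of 8 (Col1a2, Pdgfra, Lum and Postn). These shifts moved with the antioxidant genes described here and their part in the results was not tested. In such bulk tissue, fewer cells of a type and less RNA per cell cannot be told apart.

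The arrays also fell into sets by RNA quality and by added controls. The log2 signal of the added poly-A control transcripts averaged 9.36 on fibrotic arrays, 10.77 on non-fibrotic arrays, 2.32 on control arrays 1 and 2, and 10.35 on control arrays 3 to 6. The 3′ minus 5′ log2 signal of Gapdh, which grows as RNA is degraded or shortened in amplification, averaged 1.87 on fibrotic, 2.19 on non-fibrotic, 1.60 on the first control pair and 0.78 on the other 4 control arrays. The same difference for actin averaged 1.80 on fibrotic, 1.92 on non-fibrotic, 2.27 on the first control pair and 1.57 on the other 4 control arrays, a different order. The part of these differences in the results was not tested.

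In fibrotic bronchi 20 of the 50 antioxidant genes fell and 2 rose against controls, where 8.38% of all genes fell and 4.13% rose (12.5% in either direction). The glutathione transferases carried most of the decrease: 14 of 23 fell and none rose, with a median log2 fold change of -1.64, beside 0.10 for all genes tested. Of the 27 other genes 6 fell (Gclm, Gsr, Gpx2, Nqo1, Prdx3 and Prdx6) and 2 rose (Gpx3 and Gpx8), with a median of -0.08. The median over all 50 was -0.59, or -0.54 with signals under the absent level set to that level. On each of the 3 fibrotic arrays 20 of the 23 transferases lay below their control mean. That count was 15, 9 and 18 on non-fibrotic arrays 4, 8 and 10, and 5 to 19 on the control arrays, highest on control array 1. It includes Gsta3l1, Gstm3 and Gstm6l, which were under the absent level throughout. The median differences from the control mean were -1.51, -1.79 and -1.81 on the fibrotic arrays. The non-fibrotic array medians were -0.37, 0.13 and -0.39, and those of the controls ran from -0.36 to 0.18. Leaving out any 1 array left 15 to 21 decreases, and leaving out any 1 fibrotic array ended both increases. Against control arrays 1 and 2 alone 7 genes fell and none rose, and against control arrays 3 to 6 alone 20 fell and 2 rose. The 7 were Gsta1, Gsta3, Gstm1, Gstm2, Gstm7, Gstt3 and Prdx6. By the form of their labels control arrays 1 and 2 belong with the exposed arrays and control arrays 3 to 6 form a set that holds no exposed array. With the set as a fixed block 13 genes fell, and Gclm, Gpx2, Gsta4, Gsto2, Gstp1, Gstz1, Mgst2 and Prdx3 lost their call (adjusted p = 0.0169 to 0.145). That fit gives the same differences from controls as control arrays 1 and 2 alone, and the other controls enter only its spread estimate. With the set as a random block 17 fell, and Gsta4, Gsto2, Gstp1 and Prdx3 lost their call.

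**Figure D1:**
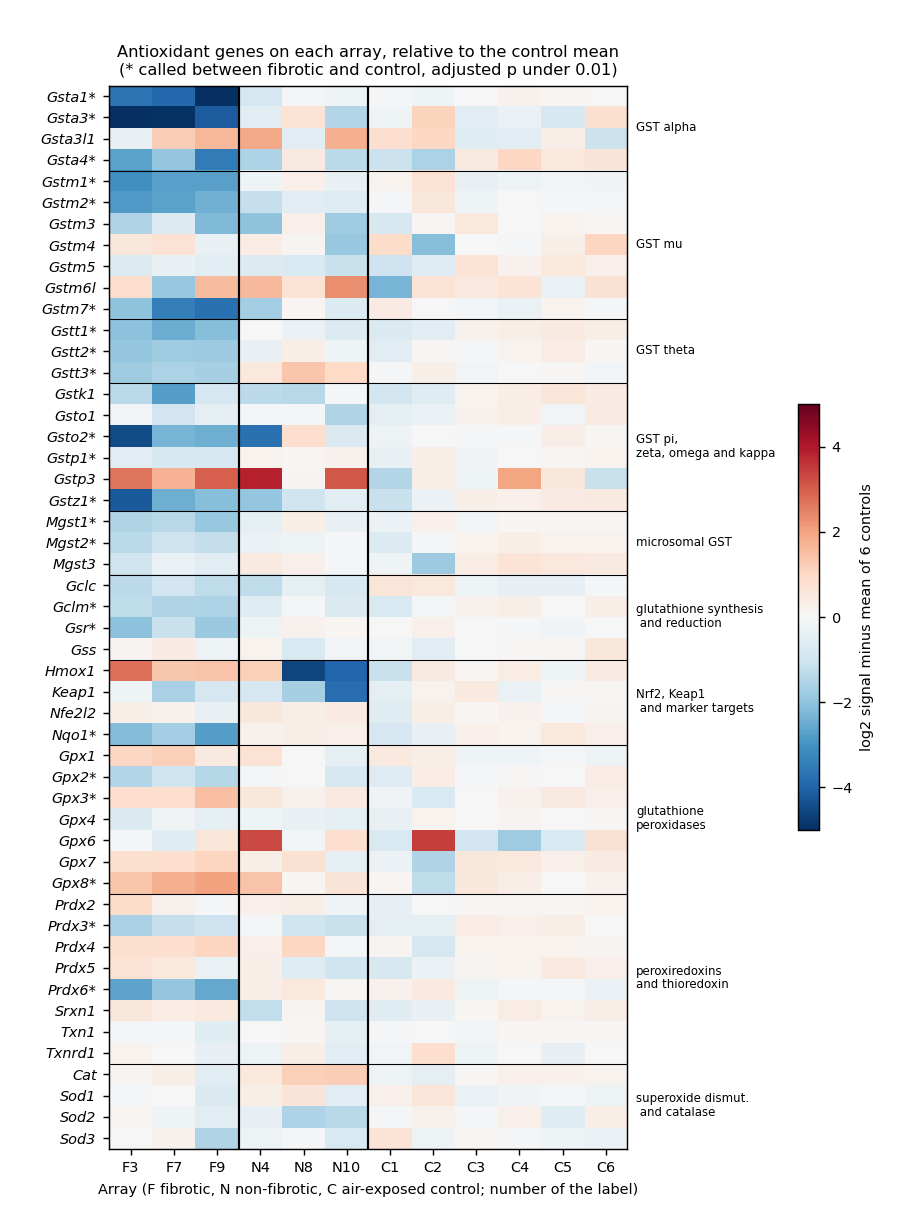
Log2 signal of each of the 50 genes on each of the 12 arrays minus the mean of the 6 control arrays (colour scale), with columns for fibrotic (F), non-fibrotic (N) and control (C) arrays and rows grouped by gene family; an asterisk marks a call between fibrotic and control bronchi. The blue block in the fibrotic columns covers mainly the glutathione transferase rows, where 14 of 23 genes fell.

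The alpha class, the transferases with peroxidase activity towards lipid hydroperoxides, held the largest decreases, and 3 of its 4 measured genes fell. Gsta1 had log2 signals of 9.43, 9.19 and 8.14 in fibrotic bronchi, 12.26, 13.07 and 12.88 in non-fibrotic bronchi, and a lowest, median and highest of 12.91, 13.12 and 13.33 in controls. Every fibrotic array lay far below both other groups, and Gsta1 fell 18.3-fold against controls (log2 fold change -4.20 ± 0.25 (SE), adjusted p = 3.3e-08). Gsta3 read 3.96, 5.04 and 5.83 in fibrotic bronchi, all under the absent level, against 9.47, 10.65 and 8.51 in non-fibrotic bronchi and 9.20, 9.71 and 11.09 (lowest, median, highest) in controls. It was therefore at least 11.05-fold lower than in controls (adjusted p = 8.08e-06) and at least 8.16-fold lower than in non-fibrotic bronchi (adjusted p = 0.000225). Gsta4, whose enzyme prefers the lipid peroxidation product 4-hydroxynonenal, read 8.23, 9.00 and 7.41 in fibrotic, 9.39, 11.38 and 9.56 in non-fibrotic and 9.32, 11.41 and 11.96 in control bronchi. It fell by 2.70 ± 0.57 on the log2 scale (adjusted p = 0.00384), with the fibrotic arrays below all controls but controls spread widely. Without fibrotic array 3 or 9 the call was lost (adjusted p = 0.019 to 0.0303), and against control arrays 1 and 2 alone the difference was -1.37 (adjusted p = 0.287). The fourth gene, Gsta3l1, was under the absent level throughout. Transferases within a class are similar in sequence, and probes for 1 gene can bind transcripts of its relatives, so single members of a class are less certain than the class.

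The mu class was split between 3 genes that fell and 4 genes with no call. Gstm1 had log2 signals of 10.01, 10.38 and 10.36 in fibrotic, 12.88, 13.35 and 12.69 in non-fibrotic and 12.72, 12.92 and 13.80 in control bronchi (lowest, median and highest, as for all controls here). It fell 7.10-fold (log2 fold change -2.83 ± 0.23, adjusted p = 6.73e-07). Non-fibrotic and control arrays overlapped. Gstm2 read 10.00, 10.18 and 10.44 in fibrotic, 11.71, 12.28 and 12.22 in non-fibrotic and 12.63, 12.76 and 13.40 in control bronchi. The 3 groups of Gstm2 values did not overlap, and the decrease against controls was 6.25-fold (-2.64 ± 0.20, adjusted p = 3.57e-07). Gstm7 read 8.63, 7.23 and 6.91 in fibrotic, 8.92, 10.75 and 9.95 in non-fibrotic and 10.30, 10.60 and 11.05 in control bronchi, a decrease of 8.30-fold (-3.05 ± 0.39, adjusted p = 5.67e-05). Gstm5 read 7.77 to 8.07 in fibrotic, 7.37 to 7.79 in non-fibrotic and 7.42 to 9.15 in control bronchi, and Gstm4 read 6.34 to 7.40, 4.79 to 7.05 and 4.56 to 7.75 in the same order. Their groups overlapped and neither was called, and Gstm3 and Gstm6l were under the absent level. In the RefSeq annotation the 7 measured mu genes all lie on chromosome 2, in the order Gstm5, Gstm6l, Gstm7, Gstm3, Gstm2, Gstm1, Gstm4, so uncalled genes lie among the called ones in that order.

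All 3 theta class genes fell. These enzymes act on small halogenated and epoxide substrates, and the 3 genes all lie on chromosome 20. Gstt1 had log2 signals of 7.51, 7.11 and 7.45 in fibrotic, 9.57, 9.27 and 8.87 in non-fibrotic and 8.84, 9.82 and 10.02 in control bronchi (-2.22 ± 0.32, adjusted p = 0.000155). Gstt2 read 9.35, 9.51 and 9.48 in fibrotic, 10.93, 11.63 and 11.09 in non-fibrotic and 10.72, 11.35 and 11.67 in control bronchi (-1.85 ± 0.23, adjusted p = 3.89e-05). A second probe set of Gstt2, which read at or near the absent level in fibrotic and control bronchi, differed by -0.47 against controls (adjusted p = 0.589) and by -2.13 against non-fibrotic bronchi (adjusted p = 0.0385). On that probe set the non-fibrotic arrays (8.28, 7.57 and 8.86) all lay above the highest control (7.14), by 1.67 on average (adjusted p = 0.0691). Gstt3 read 10.26, 10.44 and 10.36 in fibrotic, 12.56, 13.40 and 13.05 in non-fibrotic and 11.88, 11.99 and 12.33 in control bronchi, a decrease of 3.20-fold against controls (-1.68 ± 0.19, adjusted p = 1.8e-05). Among the probe sets used for the transferases, only that of Gstt3 had all 3 non-fibrotic arrays above the 6 controls, by 0.97 ± 0.19 on the log2 scale. That difference missed the threshold (adjusted p = 0.0139) and passed it without non-fibrotic array 4 (adjusted p = 0.00386).

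Of the pi, zeta, omega and kappa genes 3 of 6 fell. Gstz1, maleylacetoacetate isomerase of tyrosine breakdown, read 6.73, 8.50 and 8.83 in fibrotic, 9.01, 9.95 and 10.42 in non-fibrotic and 9.81, 11.21 and 11.41 in control bronchi. The fibrotic values lay below all others, and the decrease was 7.57-fold (-2.92 ± 0.46, adjusted p = 0.000333). Gstp1, the abundant pi class enzyme of epithelia, changed far less: 12.17, 11.89 and 11.86 in fibrotic, 12.87, 12.80 and 12.90 in non-fibrotic and 12.34, 12.71 and 13.03 in control bronchi. It fell by 0.73 ± 0.17 (adjusted p = 0.00688), with no overlap, but the call was lost without any 1 of the fibrotic arrays or of control arrays 3 to 6 (adjusted p = 0.0109 to 0.0365). Gsto2, a dehydroascorbate reductase, was under the absent level on the fibrotic arrays (3.76, 5.89 and 5.76), read 4.49, 9.05 and 7.50 in non-fibrotic bronchi and 7.95, 8.18 and 8.54 in controls. It was at least 3.25-fold lower than in controls (adjusted p = 0.00892), a call lost without any 1 fibrotic or control array or without non-fibrotic array 10 (adjusted p = 0.0121 to 0.0672). Mitochondrial and peroxisomal Gstk1 read 9.32, 7.91 and 9.83 in fibrotic, 9.37, 9.28 and 10.57 in non-fibrotic and 9.76, 10.91 and 11.26 in control bronchi. Its difference of -1.64 ± 0.43 was not called (adjusted p = 0.0151) and was called without control array 1 or fibrotic array 9 (adjusted p = 0.00694 to 0.00993). Gsto1 overlapped in all groups (fibrotic 10.04 to 10.89, non-fibrotic 9.52 to 10.95, controls 10.53 to 11.43). The remaining Gstp3 was under the absent level on every array but non-fibrotic array 4 (6.64), and no fold change is given for it.

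The membrane-bound microsomal transferases fell for 2 of 3 genes. Mgst1 had log2 signals of 11.39, 11.51 and 11.01 in fibrotic, 12.45, 13.21 and 12.52 in non-fibrotic and 12.59, 12.95 and 13.16 in control bronchi (3.03-fold lower than controls, -1.60 ± 0.20, adjusted p = 3.89e-05). Mgst2, which can also make leukotriene C4, read 10.20, 10.50 and 10.37 in fibrotic, 11.25, 11.30 and 11.47 in non-fibrotic and 10.86, 11.71 and 11.83 in control bronchi (-1.19 ± 0.22, adjusted p = 0.00111). Both had fibrotic arrays below every other array. Mgst3 was not called, with 7.20 to 7.86 in fibrotic, 8.15 to 8.66 in non-fibrotic and 6.39 to 8.88 in control bronchi.

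Enzymes that make and recycle glutathione moved the same way where they were called. Gsr had log2 signals of 6.83, 7.75 and 7.00 in fibrotic, 8.60, 9.08 and 8.98 in non-fibrotic and 8.68, 8.85 and 9.12 in control bronchi, and fell 3.19-fold against controls (-1.67 ± 0.29, adjusted p = 0.000883). Non-fibrotic arrays lay close to the control range, with a difference of 0.03 and a 95% interval of -0.60 to 0.65. Gclm read 8.71, 8.47 and 8.41 in fibrotic, 9.35, 9.88 and 9.23 in non-fibrotic and 9.20, 10.07 and 10.29 in control bronchi, a decrease of 2.70-fold (-1.43 ± 0.28, adjusted p = 0.00191). Without fibrotic array 7 or 9 its adjusted p was 0.0112 or 0.011. The catalytic partner Gclc read 8.77, 9.13 and 8.81 in fibrotic, 8.82, 9.60 and 9.29 in non-fibrotic and 9.67, 9.94 and 10.69 in control bronchi. Both exposed groups lay below all controls, by -1.18 ± 0.29 in fibrotic bronchi (adjusted p = 0.0103) and -0.85 ± 0.29 in non-fibrotic bronchi (adjusted p = 0.086), and neither was called. The fibrotic difference was called with a second probe set (-1.81, adjusted p = 0.00378), which gave -1.73 in non-fibrotic bronchi (adjusted p = 0.0228), and without non-fibrotic array 4 or 8 (adjusted p = 0.00782 to 0.00834). Gss, the last step of synthesis, showed no such difference, with 8.84, 9.09 and 8.45 in fibrotic, 8.87, 7.93 and 8.57 in non-fibrotic and 8.16, 8.71 and 9.25 in control bronchi (0.11 ± 0.32).

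Nfe2l2 itself, which encodes Nrf2, read 11.72, 11.67 and 11.07 in fibrotic, 12.01, 11.71 and 11.85 in non-fibrotic and 10.84, 11.54 and 11.72 in control bronchi. The groups overlapped, and the fibrotic difference of 0.05 had a 95% interval of -0.42 to 0.52. The quinone reductase Nqo1, a standard transcript readout of Nrf2, read 10.00, 10.47 and 9.41 in fibrotic, 12.38, 12.46 and 12.42 in non-fibrotic and 11.34, 12.39 and 12.71 in control bronchi. Nqo1 fell 4.66-fold in fibrotic bronchi against controls (-2.22 ± 0.28, adjusted p = 5.12e-05) and 5.49-fold against non-fibrotic bronchi. Haem oxygenase Hmox1, which is abundant in macrophages as well as being an Nrf2 target, took the opposite direction without a call: 10.85, 9.46 and 9.52 in fibrotic, 9.28, 3.53 and 4.14 in non-fibrotic and 7.00, 8.33 and 8.57 in control bronchi. Every fibrotic array was above every other array, and non-fibrotic arrays 8 and 10 were under the absent level while array 4 was above all controls. Array 4 also had the highest sum of macrophage markers among the non-fibrotic arrays, 12.84 against 10.47 and 11.01. Its sums of granulocyte, fibroblast, smooth muscle and erythroid markers were the highest of these arrays too, and those of the other marker lists were not. The part of these differences in the Hmox1 signal was not tested. The fibrotic difference was 1.84 ± 0.90 against controls (adjusted p = 0.173) and 4.29 ± 1.04 against non-fibrotic bronchi (adjusted p = 0.0162). Without non-fibrotic array 4 Hmox1 was called in each comparison, 1.84 higher in fibrotic bronchi than in controls (adjusted p = 0.00887), at least 3.00-fold lower in non-fibrotic bronchi than in controls (adjusted p = 0.000853) and at least 10.7-fold higher in fibrotic than in non-fibrotic bronchi (adjusted p = 1.73e-05), both being lower limits. Keap1, the Nrf2 repressor, read 8.02, 6.61 and 7.37 in fibrotic, 7.39, 6.58 and 4.43 in non-fibrotic and 7.79, 8.27 and 8.71 in control bronchi. The non-fibrotic arrays lay below all controls, but the difference of -2.09 ± 0.55 was not called (adjusted p = 0.0385).

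**Figure D2:**
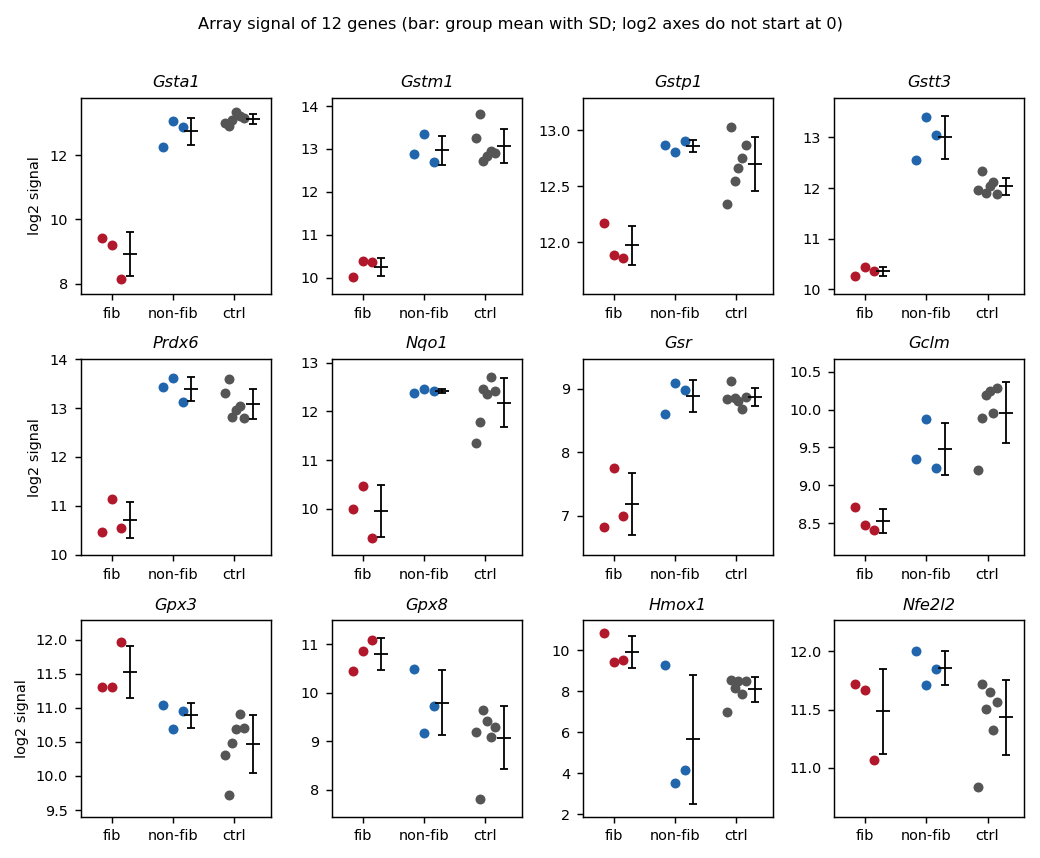
Log2 array signal (y axes, not starting at 0) of 12 genes on each fibrotic, non-fibrotic and control array, with the group mean and SD as a bar beside the points. The fibrotic points of Gsta1, Gstm1, Gstp1, Gstt3, Prdx6, Nqo1, Gsr and Gclm lie below all points of both other groups, while those of Gpx3 and Hmox1 lie above them.

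The glutathione peroxidases were the family in which genes rose. Gpx3, the secreted peroxidase, read 11.31, 11.31 and 11.97 in fibrotic, 11.04, 10.69 and 10.95 in non-fibrotic and 9.71, 10.59 and 10.91 in control bronchi (2.09-fold higher than controls, 1.06 ± 0.26, adjusted p = 0.00905). Gpx8, a peroxidase of the endoplasmic reticulum, read 10.44, 10.87 and 11.09 in fibrotic, 10.50, 9.17 and 9.73 in non-fibrotic and 7.80, 9.23 and 9.64 in control bronchi (3.31-fold higher, 1.73 ± 0.37, adjusted p = 0.00442). In both genes all fibrotic arrays exceeded all controls. The Gpx8 call was lost without any 1 fibrotic array (adjusted p = 0.0108 to 0.0281), and the Gpx3 call without any 1 fibrotic array, control array 1, 3, 4 or 6, or non-fibrotic array 4 or 10 (adjusted p = 0.0103 to 0.0662). Gpx2, the epithelial peroxidase and an Nrf2 target, went the other way, with 11.36, 11.85 and 11.39 in fibrotic, 12.75, 12.81 and 12.01 in non-fibrotic and 12.18, 12.84 and 13.19 in control bronchi. It fell 2.46-fold (-1.30 ± 0.24, adjusted p = 0.00125), and without fibrotic array 3 the adjusted p was 0.0116. The ubiquitous Gpx1 read 13.80, 13.93 and 13.20 in fibrotic, 13.46, 12.76 and 12.27 in non-fibrotic and 12.49, 12.59 and 13.23 in control bronchi, and its difference of 0.90 ± 0.25 was not called (adjusted p = 0.0222). Gpx7, another peroxidase of the endoplasmic reticulum, was also not called although its fibrotic arrays (8.59, 8.63 and 8.86) lay above the non-fibrotic (7.33 to 8.54) and control (6.28 to 8.34) arrays (0.92 ± 0.45, adjusted p = 0.173). Gpx4, which reduces lipid hydroperoxides in membranes, read 10.23 to 10.75 in fibrotic, 10.48 to 10.74 in non-fibrotic and 10.58 to 11.14 in control bronchi and was not called. Gpx6 was under the absent level.

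Among the peroxiredoxins and thioredoxin genes 2 of 8 fell. Prdx6, the peroxiredoxin that works with glutathione and the pi class transferase, had log2 signals of 10.47, 11.14 and 10.54 in fibrotic, 13.43, 13.62 and 13.13 in non-fibrotic and 12.80, 13.01 and 13.59 in control bronchi. It fell 5.17-fold against controls (-2.37 ± 0.21, adjusted p = 1.57e-06) and 6.40-fold against non-fibrotic bronchi (adjusted p = 8.43e-06), with no overlap in either comparison. Mitochondrial Prdx3 read 8.53, 9.00 and 9.11 in fibrotic, 10.11, 9.18 and 9.05 in non-fibrotic and 9.69, 10.28 and 10.51 in control bronchi (-1.28 ± 0.30, adjusted p = 0.0074). Its call was lost without any 1 fibrotic array or any 1 of control arrays 3 to 6 (adjusted p = 0.0157 to 0.0488). The other 6 genes had no call. Prdx4, of the secretory pathway, read 10.34, 10.38 and 10.62 in fibrotic, 9.79, 10.59 and 9.46 in non-fibrotic and 8.71, 9.69 and 9.73 in control bronchi (0.91 ± 0.29, adjusted p = 0.0404). Srxn1, the enzyme that repairs overoxidised peroxiredoxins, read 9.45, 9.27 and 9.37 in fibrotic, 7.66, 9.00 and 7.86 in non-fibrotic and 8.29, 9.02 and 9.24 in control bronchi. On that probe set the fibrotic arrays were above all others without passing the test (0.48 ± 0.34 against controls, adjusted p = 0.355). Another Srxn1 probe set did not show this separation. Its fibrotic arrays (8.54, 6.64 and 6.69) lay within the control range of 6.62 to 8.97 (-0.10 against controls, adjusted p = 0.962). The remaining Srxn1 probe set, mostly under the absent level, was not called against controls either (1.09, adjusted p = 0.442). Thioredoxin, Txn1, read 13.75, 13.72 and 13.21 in fibrotic, 13.81, 13.95 and 13.37 in non-fibrotic and 13.71, 13.87 and 13.92 in control bronchi (-0.27, 95% interval -0.62 to 0.07). Thioredoxin reductase Txnrd1 read 11.93, 11.78 and 11.36 in fibrotic, 11.53, 12.09 and 11.22 in non-fibrotic and 11.37, 11.69 and 12.61 in control bronchi (-0.08, 95% interval -0.64 to 0.48). The groups of both overlapped. Prdx2 (11.98 to 12.96 in fibrotic, 11.87 to 12.33 in non-fibrotic and 11.63 to 12.24 in control bronchi) and Prdx5 (11.81 to 12.84, 11.15 to 12.42 and 11.35 to 12.63 in the same order) overlapped in all groups.

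No superoxide dismutase or catalase gene was called in fibrotic bronchi. The fibrotic differences from controls were -0.26 ± 0.26 for cytosolic Sod1, -0.23 ± 0.27 for mitochondrial Sod2, -0.43 ± 0.33 for extracellular Sod3 and -0.03 ± 0.24 for catalase, Cat. Sod2 and Cat did stand out in the non-fibrotic bronchi. Cat read 12.13, 12.27 and 11.48 in fibrotic, 12.50, 13.20 and 13.22 in non-fibrotic and 11.49, 12.10 and 12.25 in control bronchi, so that all non-fibrotic arrays lay above both other groups. Against controls the difference was 0.99 ± 0.24 (adjusted p = 0.0282). Sod2 read 11.87, 11.57 and 11.20 in fibrotic, 11.38, 10.23 and 10.40 in non-fibrotic and 11.16, 11.86 and 12.09 in control bronchi, with non-fibrotic arrays 8 and 10 below all controls and array 4 among them (-1.11 ± 0.27, adjusted p = 0.0302). Without array 4 the Sod2 difference was called (adjusted p = 0.00652).

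**Figure D3:**
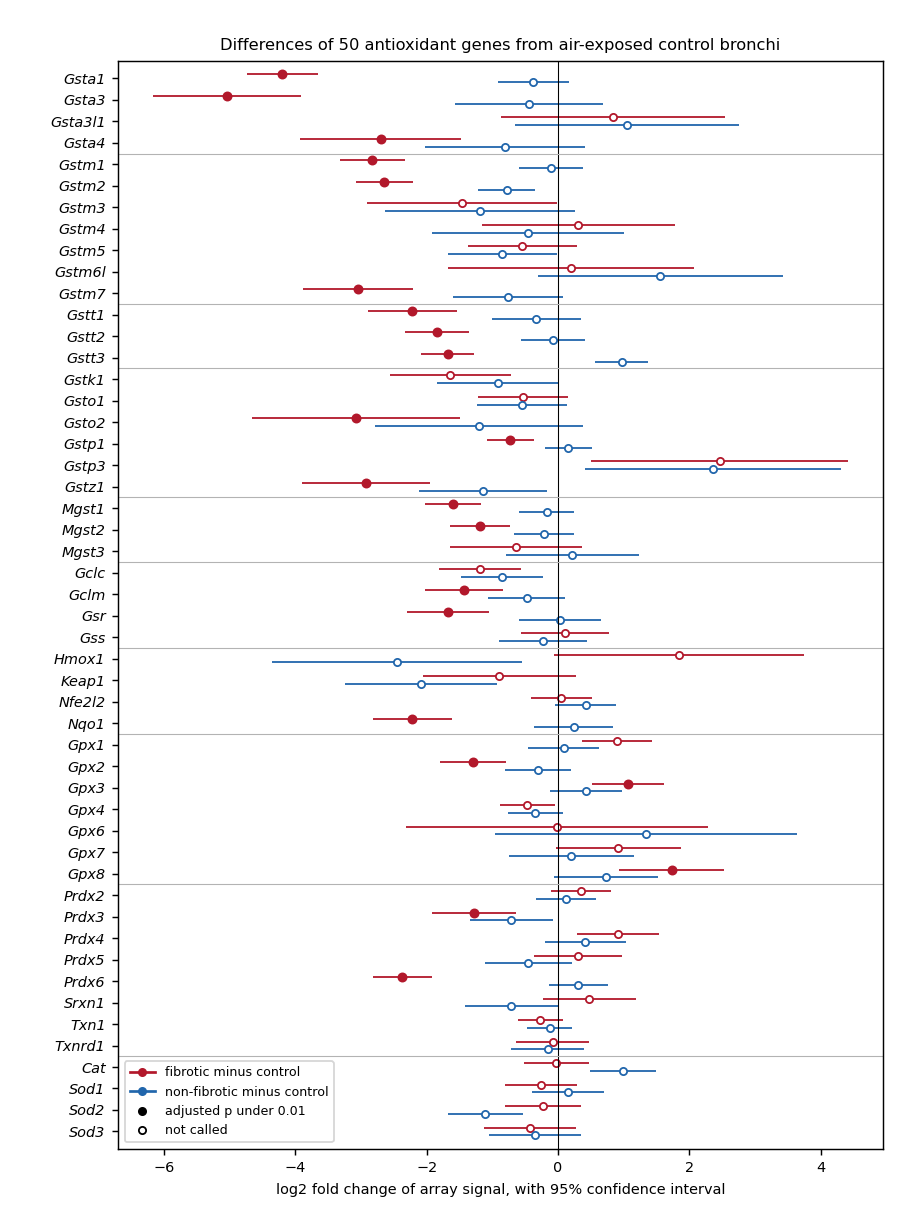
Log2 fold change of array signal (x axis) with its 95% confidence interval for each of the 50 genes, fibrotic minus control in red and non-fibrotic minus control in blue, with filled points where the adjusted p was under 0.01. Filled red points lie left of 0 for 20 genes and right of 0 for Gpx3 and Gpx8, and no blue point is filled.

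In non-fibrotic bronchi none of the 50 genes was called against controls, where 0.183% of all genes rose and 0.436% fell (0.619% in either direction). At an unadjusted p under 0.05, which 27.7% of all genes passed, 11 of the 50 differed: Cat and Gstt3 were higher, Gclc, Gstm2, Gstm5, Gstz1, Hmox1, Keap1, Prdx3 and Sod2 were lower, and Gstp3, whose mean was under the absent level in both groups, has no direction here. The median difference was -0.22, beside 0.00 for all genes, and the smallest adjusted p was that of Gstt3. Gstm2 was the transferase with the clearest lower values, all 3 non-fibrotic arrays lying below the 6 controls (-0.78 ± 0.20, adjusted p = 0.0365). The ciliated and club cell markers were nearer to control levels here than in fibrotic bronchi, with 1 of 8 ciliated and 2 of 8 club cell markers called lower. Alveolar type II marker sums were 15.88 to 16.32 on non-fibrotic arrays, above the 14.99 to 15.73 of controls, with none of the 7 markers called. On fibrotic arrays these sums were 12.21 to 15.61. The part of this difference in tissue makeup in the results was not tested. Leaving out 1 array gave 0 or 1 increase and 0 to 2 decreases among the 50, and without non-fibrotic array 4 the calls were Gstt3 higher and Hmox1 and Sod2 lower.

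Fibrotic bronchi were also set against non-fibrotic bronchi, a comparison within the exposed rats in which shared animals were not modelled. Of the 50 genes 13 fell and none rose, where 3.83% of all genes fell and 1.47% rose (5.3% in either direction). They were Gsta1, Gsta3, Gstm1, Gstm2, Gstm7, Gstt1, Gstt2, Gstt3, Gstp1, Mgst1, Gsr, Nqo1 and Prdx6. The same 13 had fallen against controls. These comparisons share the fibrotic arrays, so their overlap is no independent repeat. The sizes side by side were -3.82 against non-fibrotic bronchi and -4.20 against controls for Gsta1, -2.72 and -2.83 for Gstm1, -1.86 and -2.64 for Gstm2, -2.65 and -1.68 for Gstt3, and -1.70 and -1.67 for Gsr. The 7 genes that fell against controls only were Gsta4, Gstz1, Gsto2, Mgst2, Gclm, Gpx2 and Prdx3. Their differences from non-fibrotic bronchi were -1.89 for Gsta4, -1.77 for Gstz1, -0.98 for Mgst2, -0.96 for Gclm, -0.995 for Gpx2 and -0.57 for Prdx3. Gsto2 was under the absent level on the fibrotic arrays and on non-fibrotic array 4, so its groups overlapped. On the group means Gsto2 was at least 1.41-fold lower in fibrotic bronchi (adjusted p = 0.202). Fits without 1 array gave 9 to 14 decreases. Gstp1 was called at an adjusted p of 0.00921, and was lost without any 1 of the exposed arrays or of control arrays 3 to 6, which enter through the shared spread (adjusted p = 0.0147 to 0.0373). Gstt1 (adjusted p = 0.0044) was lost without any 1 fibrotic array or non-fibrotic array 4 or 8 (0.0112 to 0.0204), and Gstm7 (0.00488) without fibrotic array 7 or 9 or non-fibrotic array 8 or 10 (0.022 to 0.0286). Gsr (0.00499) was lost without control array 3, 4 or 6, fibrotic array 3 or 9, or non-fibrotic array 8 or 10 (0.0105 to 0.0246). Calls were gained by Gsto2 and Cat without non-fibrotic array 4 (adjusted p = 0.00497 and 0.00835) and by Mgst2 without control array 1 (0.00462). In the fit of these 2 groups alone, without the controls' share of the spread estimate, 7 of the 13 decreases were called.

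Promoter sequences (250 bases before to 50 after the first listed start site, RefSeq, build GRCr8) were found for 41 of the 50 genes, among them 15 of the 20 that fell in fibrotic bronchi. They were searched on both strands for the antioxidant response element core TGACNNNGC, where N is any base and for a longer form, the same letters followed by A, every match of which is also a core match. The core was in 7 of the 15 promoters of genes that fell (46.7%), in 5 of the 26 others (19.2%), and in 12.2% of 27457 promoters of the same length in the annotation. The longer form was in 5 of the 15 (Gclm, Gsta1, Gsta3, Gstp1 and Gstz1), in none of the 26 others, and in 2.91% of all promoters. These counts describe letters in a short window and do not show binding, and distant elements were not searched. The 250 bases before the start are printed for 4 genes that fell, from glutathione synthesis, the peroxidases and the alpha and pi classes, with the 9 letters of the core match in capitals. In Gclm, Gsta3 and Gstp1 the lower-case base beside the capitals completes the longer form. A match read on the opposite strand appears as its reverse complement, as in Gclm and Gpx2. The Gstp1 match also holds TGACTCA, the letters that AP-1 factors bind.
Gclm (chr2:213031885-213032134, plus strand): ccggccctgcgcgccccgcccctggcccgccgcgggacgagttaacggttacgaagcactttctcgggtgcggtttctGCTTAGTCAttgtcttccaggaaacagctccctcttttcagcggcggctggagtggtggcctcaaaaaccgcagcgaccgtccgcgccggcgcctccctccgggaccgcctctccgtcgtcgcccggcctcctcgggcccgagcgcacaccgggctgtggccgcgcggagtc
Gpx2 (chr6:101230034-101230283, minus strand): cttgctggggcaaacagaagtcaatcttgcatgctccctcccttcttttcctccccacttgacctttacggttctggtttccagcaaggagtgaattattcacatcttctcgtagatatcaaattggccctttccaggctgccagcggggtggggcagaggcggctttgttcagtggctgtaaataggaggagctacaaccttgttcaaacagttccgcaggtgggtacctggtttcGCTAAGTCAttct
Gsta3 (chr9:31154739-31154988, plus strand): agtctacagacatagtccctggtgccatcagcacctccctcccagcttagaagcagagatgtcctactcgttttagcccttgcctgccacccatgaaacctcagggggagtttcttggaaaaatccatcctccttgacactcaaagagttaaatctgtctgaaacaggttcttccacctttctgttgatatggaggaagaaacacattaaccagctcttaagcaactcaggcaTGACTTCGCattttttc
Gstp1 (chr1:210769706-210769955, minus strand): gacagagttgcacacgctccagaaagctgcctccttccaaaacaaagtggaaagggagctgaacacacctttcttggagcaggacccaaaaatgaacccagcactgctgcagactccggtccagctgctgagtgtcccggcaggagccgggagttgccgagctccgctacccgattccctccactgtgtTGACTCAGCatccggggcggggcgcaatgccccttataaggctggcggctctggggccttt
Log2 fold changes of these 4 genes in fibrotic bronchi against controls were -1.43 for Gclm, -1.30 for Gpx2 and -0.73 for Gstp1, and Gsta3 was at least 11.05-fold lower, so genes with a match differed widely in size. Among genes with a core match and no call were Nfe2l2 (0.05), Prdx5 (0.31) and Sod2 (-0.23).

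Other genes of the same pathways were followed in lists drawn up by function, with earlier results of these data known. Of 10 partners and regulators of Nrf2, such as the small Maf proteins, none was called in fibrotic bronchi (median log2 fold change 0.07), and none of 17 other thioredoxin, glutaredoxin and repair enzymes (median -0.08) and none of 4 glutathione-dependent dicarbonyl and aldehyde enzymes (median 0.32) was called. At an unadjusted p under 0.05, passed by 37.3% of all genes, these lists had 0, 7 and 1 genes. The last included glyoxalase Glo1, of interest because PD is a dicarbonyl, which read 11.27, 11.08 and 11.02 in fibrotic, 11.07, 10.34 and 10.86 in non-fibrotic and 9.97, 10.50 and 10.63 in control bronchi (0.69 ± 0.22, adjusted p = 0.038). Its fibrotic arrays were above all controls without passing the threshold.

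Glutathione supply and breakdown genes fell for 3 of 14 (median -1.08, or -0.54 with signals under the absent level set to that level). They were Slc1a1, a glutamate and cysteine transporter (7.82, 7.37 and 8.89 in fibrotic, 8.48, 9.50 and 9.35 in non-fibrotic and 9.75, 11.06 and 12.10 in control bronchi, 7.39-fold lower than controls, adjusted p = 0.000369), and the gamma-glutamyltransferases Ggt1 (-1.97 ± 0.31, adjusted p = 0.000366) and Ggt5 (-1.39 ± 0.27, adjusted p = 0.00212), which cleave extracellular glutathione. Ggt5 was lost without fibrotic array 3 (adjusted p = 0.0163). With their second probe sets neither Slc1a1 (-1.51, adjusted p = 0.072) nor Ggt5 (-1.38, adjusted p = 0.124) was called. The cystine importer subunit Slc7a11, an Nrf2 target, lay at 9.73, 8.50 and 8.37 in fibrotic, 8.12, 6.37 and 6.53 in non-fibrotic and 6.59, 7.87 and 8.56 in control bronchi and was not called (1.16 ± 0.51, adjusted p = 0.133). Of 7 measured enzymes that form NADPH, Me1 (-1.38 ± 0.27, adjusted p = 0.0023) and Idh1 (-0.95 ± 0.23, adjusted p = 0.00896) fell. Me1 was lost without fibrotic array 9 (adjusted p = 0.0198), and Idh1 without any of 9 arrays: the fibrotic arrays, control arrays 2 to 6 and non-fibrotic array 10 (0.0108 to 0.0396). A second Idh1 probe set gave 0.22 (adjusted p = 0.811). Of 12 other Nrf2 targets 2 fell, microsomal epoxide hydrolase Ephx1 and the iron-binding protein Pir. Ephx1 read 8.65, 8.76 and 8.52 in fibrotic, 12.18, 12.03 and 11.29 in non-fibrotic and 10.98, 12.45 and 12.62 in control bronchi (10.7-fold lower than controls, -3.42 ± 0.35, adjusted p = 6.1e-06). Pir read 6.35, 7.40 and 7.73 in fibrotic, 9.55, 9.47 and 9.48 in non-fibrotic and 9.99, 10.11 and 10.87 in control bronchi (8.56-fold lower, adjusted p = 4.68e-06). Both were also lower than in non-fibrotic bronchi, with no overlap.

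Of 9 measured enzymes that form oxidants 2 rose (median log2 fold change 1.09, or 0.76 with signals under the absent level set to that level). Cybb, the catalytic subunit of the phagocyte NADPH oxidase, had log2 signals of 12.10, 11.91 and 11.26 in fibrotic, 10.53, 7.74 and 7.47 in non-fibrotic and 8.28, 8.55 and 10.07 in control bronchi. It was 7.78-fold higher than in controls (2.96 ± 0.55, adjusted p = 0.00141), and not called without fibrotic array 3 or 7 (0.0106 to 0.0128). Xanthine dehydrogenase, Xdh, read 12.96, 13.27 and 12.09 in fibrotic, 12.20, 11.10 and 10.81 in non-fibrotic and 10.34, 11.50 and 11.69 in control bronchi (1.44 ± 0.34, adjusted p = 0.00827, lost without fibrotic array 3 or 7 or any of control arrays 3 to 6 at 0.0118 to 0.0624). Macrophage markers were highest on the same fibrotic arrays, as given above. Against non-fibrotic bronchi, Cybb, the oxidase subunit Ncf4 and the epithelial oxidase Duox2 (at least 2.15-fold) rose, and Ggt1, the gamma-glutamylcyclotransferase Ggct, Ephx1 and Pir fell. The Cybb, Ncf4, Duox2, Ggt1 and Ggct calls in that comparison were each lost without single arrays (Cybb without any 1 fibrotic array or non-fibrotic 8 or 10 at 0.0104 to 0.0317, Ncf4 without fibrotic 3 or 7 or non-fibrotic 8 or 10 at 0.0174 to 0.0329). Duox2 was lost without any 1 fibrotic array, control 2, 3 or 6, or non-fibrotic 8 or 10 (0.0102 to 0.043), Ggt1 without any 1 exposed array but non-fibrotic 10 or without any of controls 2 to 6 (0.0108 to 0.0472), and Ggct without any 1 fibrotic array, control 3, 4 or 6, or non-fibrotic 8 or 10 (0.0104 to 0.0315). With their second probe sets neither Cybb (adjusted p = 0.028) nor Ggct (adjusted p = 0.642) was called against non-fibrotic bronchi. With the mean of its probe sets Ggct was not called there either (adjusted p = 0.148). With the array set as a fixed block the calls of Cybb, Xdh, Ggt1, Ggt5, Me1 and Idh1 against controls were lost (adjusted p = 0.011 to 0.0902). No pathway gene was called between non-fibrotic bronchi and controls.

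**Figure D4:**
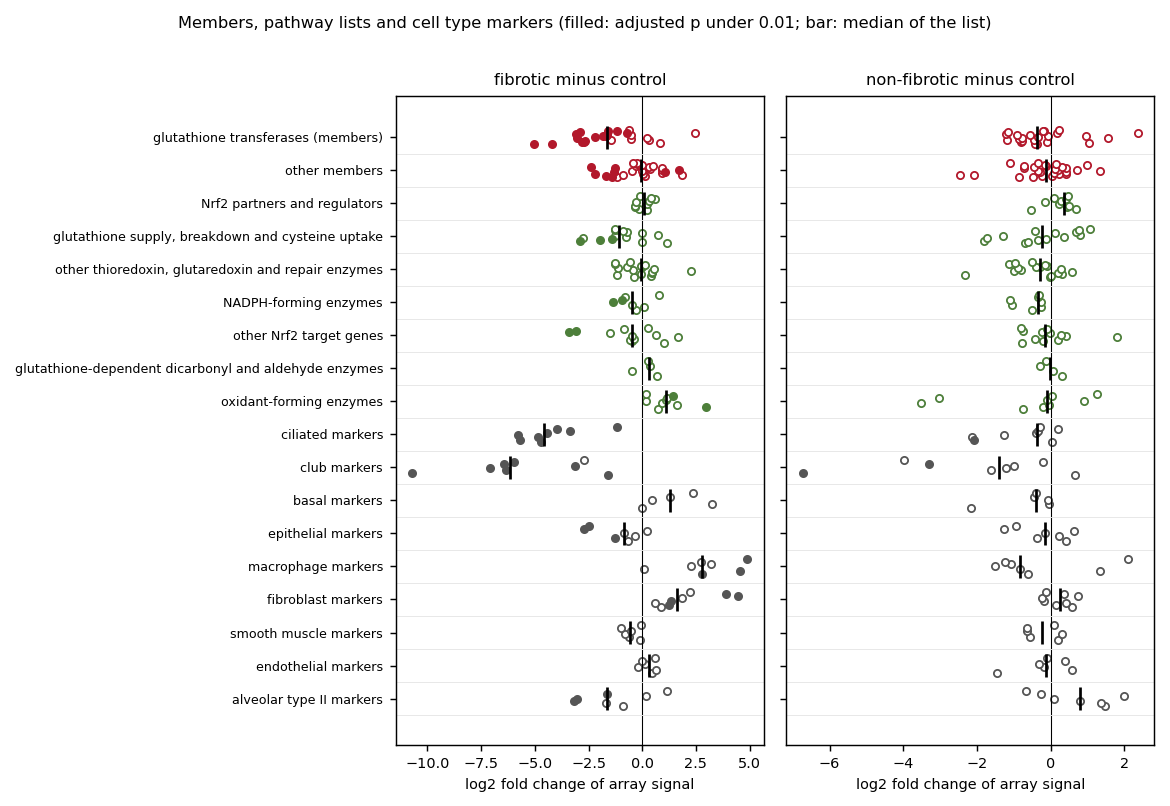
Log2 fold change of array signal (x axes) for each gene, grouped in rows into glutathione transferases, the other members, pathway lists and cell type marker lists (the erythroid and granulocyte lists are not drawn), for fibrotic minus control (left) and non-fibrotic minus control (right), with filled points at an adjusted p under 0.01 and a bar at the median of each list. The median of the transferases lies at -1.64 on the left, between the medians of the club and ciliated cell markers (-6.17 and -4.58, or -4.50 and -4.45 with signals under the absent level set to that level) and 0. The club list includes genes that the paper names among its largest decreases in fibrotic bronchi.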

How the data were processed

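The authors deposited 1 table of array signal intensity for 31099 probe sets on 12 Affymetrix rat 3′ expression arrays, made with the MAS5 algorithm (version not given in the sources used here) from 20 ng of RNA amplified per specimen, and scaled so that each array's trimmed mean signal is about 500. The array named in the series' design text is another product than the one whose probe sets the table holds. The deposited intensities were taken to log2 without a pseudocount and 57 Affymetrix control probe sets were left out.

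A single model of 3 groups over all 12 arrays was fitted with limma 3.58.1 (R 4.3.3, statmod 1.5.0), by lmFit and eBayes with an intensity trend, and p-values were adjusted by Benjamini-Hochberg within each comparison. Calls needed an adjusted p under 0.01. Gene names came from the platform annotation (20826 probe sets with 1 symbol, 436 with several and 9780 with none), and each gene was read from its probe set of highest mean log2 signal. The code was tested on simulated data. No 2 arrays held identical values. Each of the 50 genes is named. Values per exposed array, with the controls as lowest, median and highest, are given for every called gene of the 50. They are also given for Nfe2l2, Keap1, Gclc, Gss, Hmox1, Txnrd1, Txn1, Srxn1 and Cat. Values of Gstk1, Gpx1, Gpx7, Prdx4 and Sod2 were added after they were seen. Of each pathway list up to 4 called genes were named, plus Slc7a11 and Glo1 whatever their result. The genes and lists were chosen with earlier results of these data known. Alternatives covered thresholds, dim probe sets, a floor, a pseudocount, quantile normalization, median centring, no trend, array weights, subsets and blocks of arrays, a second probe set, and leaving out each array. Figures were drawn with matplotlib 3.10.9.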

Additional observations from a re-analysis of the deposited data

Results flagged for a closer look

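In 64 of the called or described genes the 6 control arrays were examined for a single array far from the other 5, and 13 genes (20.3%) had one, where chance gives about 1 in 20. The outlying array was control 1 or control 2 in all 13, the arrays on which the added poly-A controls gave low signal. Control 1 stood apart with log2 signals of 9.20 for Gclm, 1.86 for Gstm6l, 11.63 for Prdx2, 10.07 for Cybb and 10.34 for Xdh. Control 2 stood apart with 7.80 for Gpx8, 13.40 for Gstm2, 4.56 for Gstm4, 6.39 for Mgst3, 8.71 for Prdx4, 12.61 for Txnrd1, 11.999 for Ggct and 9.97 for Glo1.

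A difference between the fibrotic and non-fibrotic bronchi of exposed rats was called by limma, at an adjusted p under 0.01, for 20 genes. Among the transferases the log2 differences, fibrotic minus non-fibrotic, were -3.82 for Gsta1, -4.60 for Gsta3, -2.72 for Gstm1, -1.86 for Gstm2, -2.29 for Gstm7, -0.89 for Gstp1, -1.88 for Gstt1, -1.77 for Gstt2, -2.65 for Gstt3 and -1.43 for Mgst1. They were -1.70 for Gsr, -2.46 for Nqo1, -2.68 for Prdx6, -1.64 for Ggt1, -1.14 for Ggct, -2.34 for Pir and -3.19 for Ephx1. Positive differences were 3.18 for Cybb, 4.40 for Ncf4 and 4.18 for Duox2, the fitted values of Gsta3 and Duox2 being set by signals under the absent level in 1 group, and that of Ncf4 in part by non-fibrotic arrays 8 and 10 (3.76 and 4.43), also under it.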

How the results depend on the processing

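Control arrays 1 and 2 differ from the other 4 in the signal of added controls, and 3 arrays per exposed group limit the precision, so a missed call does not show equal levels. With controls 1 and 2 alone 0 of the 50 genes rose and 7 fell in fibrotic bronchi (median -0.70). With controls 3 to 6 alone the median was -0.82, and 1 gene rose in non-fibrotic bronchi. With the set (exposed arrays and controls 1 and 2, or controls 3 to 6) as a fixed block 13 fell (median -0.70), and as a random block 17 fell (median -0.47). The fixed block is not a separate check of size: its differences from controls are those with controls 1 and 2 alone, and only the spread estimate differs. At an adjusted p under 0.05, 4 rose and 22 fell in fibrotic bronchi, and 2 rose and 3 fell in non-fibrotic bronchi. In fibrotic against non-fibrotic bronchi 1 rose and 17 fell at that threshold. The shares of all genes at that threshold were not counted. Dropping the dimmest 40% of probe sets gave medians of -0.81 against controls and -0.64 against non-fibrotic bronchi. Quantile normalization left 1 increase in fibrotic bronchi and 1 decrease in non-fibrotic bronchi, no intensity trend left 0 increases in fibrotic bronchi, and array weights gave a median of -0.81. Median centring of the arrays, which removes the shift of 0.10 in the median of all genes, left 17 decreases and 2 increases. In the fit of the exposed groups alone 7 fell, and with second probe sets the median between them was -0.64. A second probe set of Idh1 turned its difference to 0.22.

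Leaving out 1 array gave 0 to 2 increases and 15 to 21 decreases in fibrotic bronchi (median -0.72 to -0.50), 0 to 1 and 0 to 2 in non-fibrotic bronchi (median -0.34 to -0.03), and 0 to 1 and 9 to 14 between them (median -0.80 to -0.45). Of the 22 calls in fibrotic bronchi against controls 7 held under every alternative other than the thresholds (Gsta1, Gsta3, Gstm1, Gstm2, Gstm7, Gstt3 and Prdx6), and of the 13 against non-fibrotic bronchi 7 (Gsta1, Gsta3, Gstm1, Gstm2, Gstt3, Nqo1 and Prdx6). The cause of the changes was not tested. No paired analysis was possible because the groups share at most 1 label number, and that number is not stated to mark an animal.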

Other observations

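The probe set shared by Prdx1 and its near-identical copy Prdx1l1, an Nrf2 target peroxiredoxin that no probe set measured alone, read 12.56, 12.30 and 11.91 in fibrotic, 12.43, 12.29 and 11.63 in non-fibrotic and 12.25, 12.35 and 12.66 (lowest, median, highest) in control bronchi, with a log2 difference of -0.15 ± 0.20 from controls in fibrotic bronchi (limma, adjusted p = 0.66). The probe set shared by the alpha class genes Gsta2 and Gsta5 read 5.33, 6.79 and 6.33 in fibrotic, 6.21, 4.81 and 6.89 in non-fibrotic and 2.32, 4.98 and 5.38 in control bronchi, mostly under the absent level, and was not called. The paper, in contrast, lists Gsta5 among its largest decreases in fibrotic bronchi and does not name the probe set. A probe set mostly under the absent level cannot decide whether Gsta5 fell.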
